A study of Mus musculus with 18 samples.

Results

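The regions described here are 588 windows of 401 bp at the ends of protein-coding genes in which the repressive histone mark H3K27me3 differed between mutant and wild-type mouse epidermis. They were taken from the 4257 windows on the 19 autosomes that the authors' deposited table lists as different, and they overlap or lie within 1000 bp of either end of a RefSeq GRCm38 protein-coding gene. The 588 windows lie at ends of 609 of 20665 autosomal protein-coding genes, and 24 of them lie at ends of more than 1 gene. The assay was CUT&RUN, where a nuclease tethered to an antibody frees the DNA that carries a mark, applied to single-cell suspensions of epidermis with reads of 37 bp from both ends. The mutant mice were Krt14-Cre(+); LSL-H3K36M and the WT mice Krt14-Cre(-); LSL-H3K36M, with 3 animals of each genotype and 1 library per antibody and animal. Mice of both genotypes thus carried the LSL-H3K36M construct, and the 3 Cre-negative mice served as controls that lack the recombinase. Cre was driven by the Krt14 promoter, which is active in basal keratinocytes, so other cells of the suspension may not express the mutant histone. The labels used here give no age. The suspension was not sorted, so fewer cells of a type that carries the mark and less mark per cell cannot be told apart.

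H3K27me3 is placed by Polycomb repressive complex 2 and covers the promoters of developmental genes that a tissue keeps silent. Methylation of H3K36 on the same histone tail hinders Polycomb repressive complex 2. H3K36M, a histone H3 with methionine in place of lysine 36, inhibits the enzymes that methylate H3K36, and in other cell systems it has been linked to spread of H3K27me3 into regions that normally carry H3K36 methylation.

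Promoters from RefSeq (GRCm38.p6) are shown for 7 of the 11 genes with a member window over the whole promoter, 4 of the 8 that fell and all 3 that rose, chosen with their values known, since CpG-rich promoters are typical places of Polycomb binding. Each runs from 250 bases before to 50 bases after the gene start, is read on the gene's strand, and has every CpG in capitals. Npy, which encodes neuropeptide Y, lies at chr6:49822460-49822759 on the plus strand. Slc6a3, the dopamine transporter gene, lies at chr13:73536497-73536796 on the plus strand. Cemip, a hyaluronan-binding protein gene, lies at chr7:84086456-84086755 on the minus strand, and Hmx2, a homeobox factor of the inner ear and hypothalamus, lies at chr7:131548507-131548806 on the plus strand. H3K27me3 fell at these 4 promoters.
Npy: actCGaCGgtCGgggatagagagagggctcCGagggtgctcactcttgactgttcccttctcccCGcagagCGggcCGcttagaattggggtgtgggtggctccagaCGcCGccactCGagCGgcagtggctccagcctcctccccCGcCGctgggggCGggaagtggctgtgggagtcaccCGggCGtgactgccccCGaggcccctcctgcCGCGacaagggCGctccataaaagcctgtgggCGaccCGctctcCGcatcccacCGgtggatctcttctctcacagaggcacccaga
Slc6a3: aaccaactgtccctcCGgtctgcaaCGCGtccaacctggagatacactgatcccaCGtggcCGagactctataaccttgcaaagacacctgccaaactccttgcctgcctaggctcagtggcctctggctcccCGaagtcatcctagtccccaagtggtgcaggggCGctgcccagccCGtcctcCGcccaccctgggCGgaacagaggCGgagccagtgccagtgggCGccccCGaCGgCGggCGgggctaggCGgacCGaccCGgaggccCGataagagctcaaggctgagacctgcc
Cemip: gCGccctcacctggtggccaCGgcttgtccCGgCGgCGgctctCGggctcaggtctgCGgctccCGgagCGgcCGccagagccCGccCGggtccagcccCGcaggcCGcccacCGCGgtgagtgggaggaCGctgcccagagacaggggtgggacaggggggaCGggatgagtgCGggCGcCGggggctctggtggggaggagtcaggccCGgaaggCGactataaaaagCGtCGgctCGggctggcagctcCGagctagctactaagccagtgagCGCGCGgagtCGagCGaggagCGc
Hmx2: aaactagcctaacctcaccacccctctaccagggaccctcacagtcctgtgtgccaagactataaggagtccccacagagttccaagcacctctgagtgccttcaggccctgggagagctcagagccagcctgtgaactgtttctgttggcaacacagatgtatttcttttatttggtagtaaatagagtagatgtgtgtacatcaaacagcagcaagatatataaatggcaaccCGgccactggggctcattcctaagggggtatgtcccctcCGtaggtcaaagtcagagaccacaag

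H3K27me3 rose at the next 3 promoters. Prlr, the prolactin receptor gene, lies at chr15:10176988-10177287 on the plus strand. Acta2, the smooth muscle actin gene, lies at chr19:34255324-34255623 on the minus strand, and Tm4sf5, a gene of the tetraspanin-like transmembrane 4 family, lies at chr11:70505024-70505323 on the plus strand.
Prlr: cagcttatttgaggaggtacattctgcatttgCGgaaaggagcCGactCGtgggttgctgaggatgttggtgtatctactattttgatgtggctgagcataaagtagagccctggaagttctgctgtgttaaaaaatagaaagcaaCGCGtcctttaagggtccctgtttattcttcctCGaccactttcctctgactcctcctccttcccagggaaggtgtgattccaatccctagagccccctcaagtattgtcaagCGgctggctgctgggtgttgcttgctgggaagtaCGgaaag
Acta2: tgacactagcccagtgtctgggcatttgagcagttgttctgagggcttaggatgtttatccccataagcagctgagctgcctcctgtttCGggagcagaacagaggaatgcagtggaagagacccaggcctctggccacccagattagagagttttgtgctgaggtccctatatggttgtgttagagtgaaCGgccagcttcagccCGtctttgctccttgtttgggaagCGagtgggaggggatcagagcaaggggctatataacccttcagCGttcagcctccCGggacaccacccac
Tm4sf5: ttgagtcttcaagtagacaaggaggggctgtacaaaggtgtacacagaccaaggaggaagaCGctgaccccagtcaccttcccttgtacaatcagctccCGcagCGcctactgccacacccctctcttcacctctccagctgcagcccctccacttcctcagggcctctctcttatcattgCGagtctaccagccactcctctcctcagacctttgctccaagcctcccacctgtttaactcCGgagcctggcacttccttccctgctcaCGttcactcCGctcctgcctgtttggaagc

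The Npy promoter holds 24 CpG, the Slc6a3 promoter 20, the Cemip promoter 33 and the Hmx2 promoter 2. The Prlr promoter holds 8 CpG, the Acta2 promoter 6 and the Tm4sf5 promoter 7. Over the 83 promoters that falling windows overlap, the median was 16 CpG per 300 bases and 75.9% held at least 10. The 7 promoters that rising windows overlap had a median of 7 CpG, with 1 of the 7 holding at least 10. The first listed RefSeq promoters of 16457 autosomal protein-coding genes, 1 per gene, had a median of 14 CpG, and 58.5% of them held at least 10. Promoters at windows were instead those with the longest overlap with the window, so the sets were chosen by unlike rules. The count is of the letters CG, which read the same on both strands, and it is a description of these windows, not a binding site.

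The first question was in which direction H3K27me3 moved at gene ends. It fell at 540 of the 588 windows and rose at 48, so 91.8% were lower in the mutant (exact 95% interval 89.3 to 93.9). Each value below is the authors' mean of normalised reads per genotype, converted from log2, and a difference is the log2 of mutant minus WT unless named otherwise. The falling windows had a median of 72.3 reads in WT and 31.1 in the mutant, a median difference of -1.21 (quartiles -1.46 and -1.01). The median falling window kept 43.1% of its WT level, and 415 of the 540 (76.9%) lost more than 50% of it. The rising windows had a median of 4.83 reads in WT and 18.5 in the mutant, a median difference of 1.72 (quartiles 1.25 and 2.18), and 43 of the 48 more than doubled. By the authors' deposited results 23.7% of 18072 tested windows passed an FDR under 0.05 in either direction, 15.2% with a fall and 8.54% with a rise. The number tested was derived here from the deposited FDR and p-value. Every member passed that FDR because the table lists only such windows, so nothing is read from the number of members called.

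**Figure D1:**
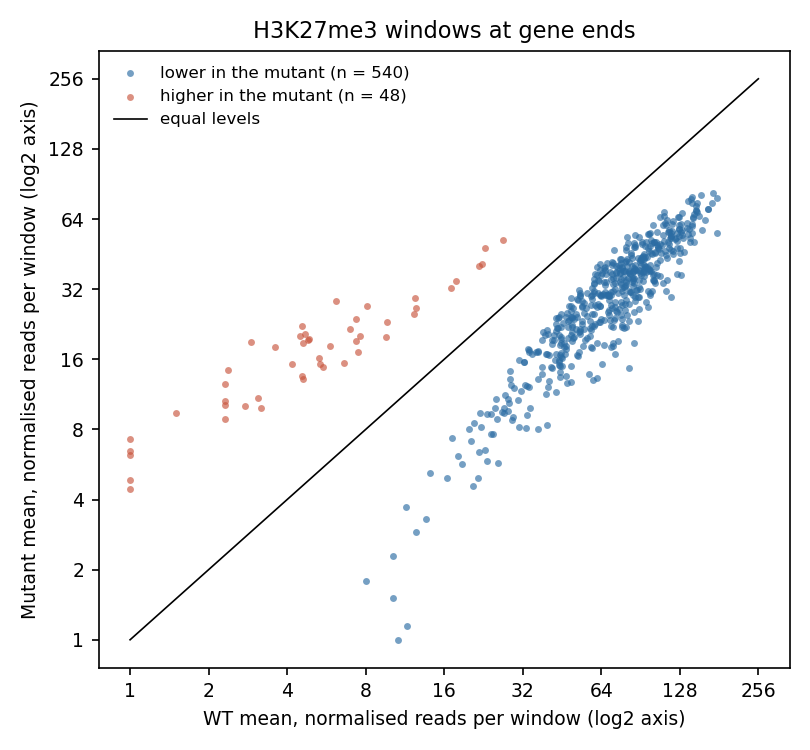
Mean normalised H3K27me3 reads of the 588 gene-end windows in WT (horizontal) and mutant (vertical), both on log scales, with falling and rising windows in separate colours and a line of equality. The 540 falling windows start from a median of 72.3 reads and the 48 rising ones from 4.83.

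Direction followed the WT level with little overlap, a relation that the difference and the WT level share in part because both contain the WT value. All 36 windows with fewer than 8 reads in WT rose, and all 492 windows with at least 32 reads in WT fell, 171 below 64 reads and 321 at or above it. Between 8 and 16 reads 9 fell and 6 rose, and between 16 and 32 reads 39 fell and 6 rose. The WT levels of falling windows spanned 8.03 to 178 reads and those of rising windows 1 to 26.99. Of the falling windows, 32 lay below the highest WT level of a rising window, and 12 rising windows lay above the lowest WT level of a falling one. Loss did not bring the falling windows down to the rising ones: 426 of the 540 falling windows were still above 18.5 reads in the mutant, the median that the rising windows reached there. The relative loss was largest at low levels, with a median difference of -2.15 at 8 to 16 WT reads against -1.17 at 64 and over. The smallest fall listed was also larger there, at -1.44 against -0.58, so small losses at low levels are not among these windows.

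Gene ends were compared with the other listed windows of the same table to show where they differ. The 1558 windows deeper in gene bodies fell in 67.4% (65.003 to 69.7), and the 2111 intergenic windows fell in 53.4% (51.3 to 55.6). These exact 95% intervals do not overlap that of the gene ends, but they cover counting error only, and windows are not independent replicates. Gene ends made up 13.8% of all listed autosomal windows, 19.9% of the falling ones and 3.12% of the rising ones. The size of the fall was similar: the median difference was -1.21 at gene ends, -1.29 deep in genes and -1.30 between genes. The WT level behind it was not, with medians of 72.3, 55.4 and 39.9 reads in falling windows.

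**Figure D2:**
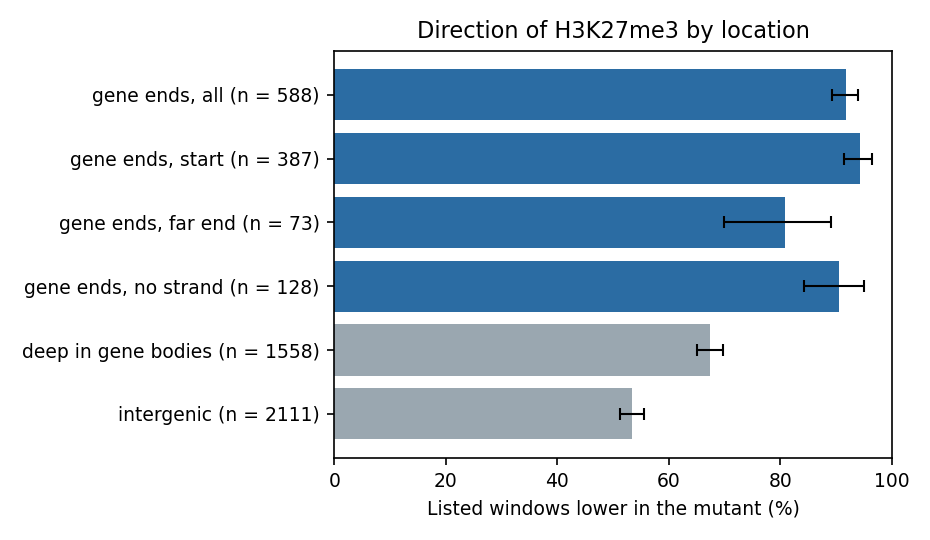
Percentage of listed H3K27me3 windows that were lower in the mutant, by location, with exact 95% intervals as bars. Gene ends stand at 91.8%, windows deep in gene bodies at 67.4% and intergenic windows at 53.4%.

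Much of the gap between locations went with level. Windows were binned by the mean over all 6 libraries, a value less tied to the direction than WT alone. In windows of 32 to 64 mean reads, 99.3% fell at gene ends, 98.1% deep in genes and 99.4% between genes, and above 64 reads every window fell in all 3 locations. Such windows were 45.6% and 28.6% of the gene ends, against 14.7% and 7.82% of the intergenic windows. At 16 to 32 reads 89.0% of gene ends fell (81 of 91), against 83.4% deep in genes and 74.6% between genes. At 8 to 16 reads the shares were 43.9% (18 of 41), 36.2% and 27.2%. Below 8 reads 35.0% of gene ends fell (7 of 20), against 3.40% and 2.42%. The gap between locations was thus present below 32 reads and near 0 above it.

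**Figure D3:**
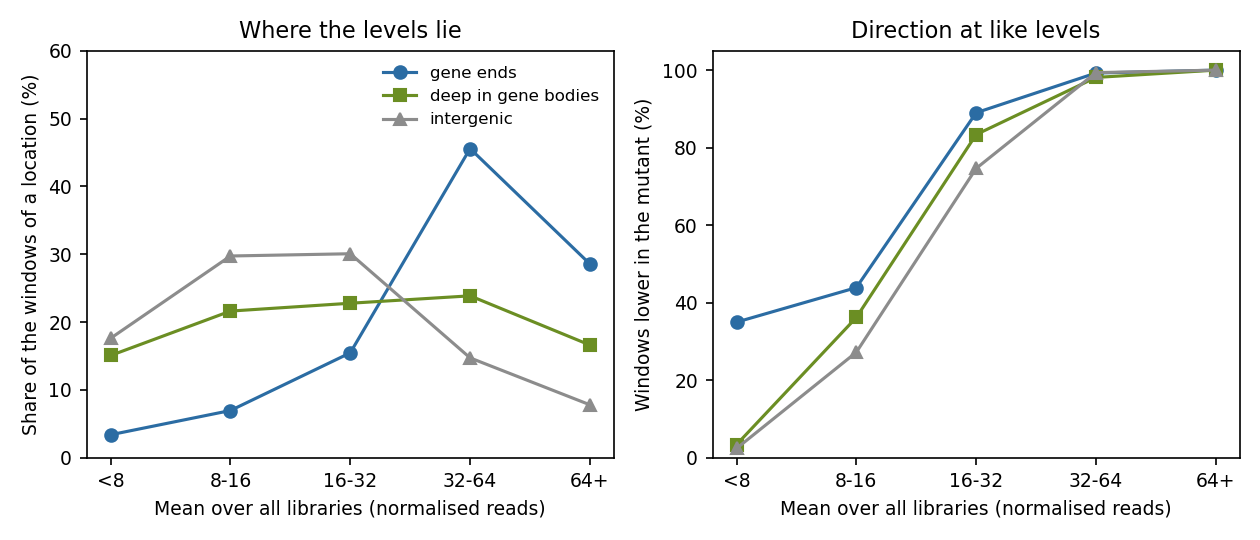
Gene-end, deep gene-body and intergenic windows by mean normalised reads over all libraries (horizontal bins). The left panel shows the share of a location's windows in each bin. The right panel shows the percentage lower in the mutant, without intervals. The locations meet above 32 reads, where 98.1% or more fell in each, and separate below.

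The strand of 16457 of the 20665 genes was known from the RefSeq promoter table, which let the start be told from the far end. At 387 windows near a start 365 fell and 22 rose, so 94.3% were lower (91.5 to 96.4). At 73 windows near a far end alone 59 fell and 14 rose, so 80.8% were lower (69.9 to 89.1). The other 128 windows, at genes without a strand in the table, fell in 90.6% (84.2 to 95.1). Around starts the share was high at every distance: 91.2% of the 57 windows centred within 200 bp of a start fell, and 96.5% of the 141 centred more than 600 bp inside the gene. Far ends had fewer windows, and of the 21 centred more than 600 bp beyond the end 13 fell and 8 rose. This count by distance does not leave out windows that are also near a start, unlike the 73 above. A gene end lay inside the window itself in 103 cases, of which 91 fell and 12 rose.

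Falls occurred on all 19 autosomes. Between 71.4% and 100% of the gene-end windows of a chromosome were lower, and 18 of the 19 chromosomes had at least 80%. Chromosome 10 had the lowest share, with 20 falling and 8 rising windows, and all 26 windows on chromosome 12 fell. On chromosome 10, 3 rising windows lay within 157 kb, at Tac2, Rdh16f2 and Rdh7, and no other listed window lay among them. Tac2, which encodes the tachykinin neurokinin B, rose from 5.50 to 14.8 reads. The retinol dehydrogenase family gene Rdh16f2 rose from 5.34 to 15.3 reads, and its relative Rdh7 from 2.31 to 12.5. These windows were low in WT and chosen after their values were seen.

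Many developmental transcription factors were among the genes whose ends lost the mark. The lists below were drawn up with earlier results of these data known, so they are read against all genes: 2.71% of the 20665 genes had a falling window at an end and 0.247% a rising one. Homeobox genes outside the Hox clusters, which specify body regions and cell types, fell at 26 of 134 genes, bHLH factors at 15 of 57, and FOX, SOX, T-box and GATA factors at 12 of 78. Only Hoxd13 of 39 Hox cluster genes had a listed window within 1000 bp of an end. Listed windows farther from these ends are not counted, such as those by the noncoding genes Hotair and Hoxa11os. These fell from 76.6 to 47.2 and from 90.8 to 46.7 reads. Together these 4 lists fell at 54 of 308 genes (17.5%) and rose at none, with a median window difference of -1.14, against -1.21 over all falling gene-end windows. The share of genes was above that of all genes, a difference that was not tested. Windows that did not pass the FDR are not listed, so the number of genes with a tested window is not known. This share and those of the lists below are of all genes in a list, with or without the mark in WT, and give no rate of loss.

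Some of the highest WT levels were at genes of transcription and chromatin factors. Gsx2, a forebrain homeobox factor, fell from 172 to 82.9 reads, and Pitx1, which specifies the hindlimb, from 170.4 to 75.04. Sfmbt2, itself a Polycomb group gene, fell from 164 to 70.9 reads. Slc18a3, the vesicular acetylcholine transporter gene, fell from 178 to 55.9 reads. These 4 kept more reads in the mutant than any rising window reached, the highest of which, at Tet1, had 52.1.

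Among the homeobox genes the far end of Msx1, a factor of ectodermal organs, fell from 95.3 to 28.2 reads, a difference of -1.76. Nkx2-9, a ventral neural tube factor, fell from 139.6 to 53.2, and Vsx1, a retinal factor, from 73.2 to 25.7. Meox2, a factor of somites and muscle, fell from 63.1 to 23.2 reads. The bHLH list held Myod1, the muscle determination factor, which fell from 100.9 to 35.1 reads, and Neurog3, the endocrine pancreas factor, whose far end fell from 85.3 to 33.9. Tal2 fell from 74.9 to 26.4 reads. In the FOX, SOX and T-box list Foxi3, a factor of hair and gland placodes, fell from 122.7 to 52.4 reads and Sox18, a vascular and hair follicle factor, from 63.3 to 26.96. Foxn4 and Eomes were lower to begin with, at 20.7 and 12.5 reads in WT and 8.52 and 2.91 in the mutant. Hoxd13 fell from 87.1 to 38.5 reads.

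Genes of nerve cells formed the next large group. Channel genes of the Kcn, Scn, Cacn and Hcn families fell at 23 of 118 (19.5%), with a median difference of -1.32, and neurotransmitter receptor genes at 17 of 110 (15.5%), with a median of -1.21. Neither list had a rising window. Most of the 23 channel genes encode voltage-gated channels or their subunits, but Kcnj9 and Kcnj12 encode inward rectifiers and Kcnk1, Kcnk3 and Kcnk12 leak potassium channels. Kcnh8, a voltage-gated potassium channel gene, had 59.6 reads in WT and 13.1 in the mutant, a difference of -2.19. Its relatives Kcna6 and Kcna1 fell from 76.9 to 22.1 and from 77.0 to 23.8 reads, and Kcnh5 from 52.2 to 16.5. Of the receptors, Nmbr, which binds neuromedin B, fell from 85.8 to 18.9 reads with an FDR of 8.27e-12 by the authors' deposited table. The serotonin receptor genes Htr4 and Htr1b fell from 74.1 to 19.2 and from 24.5 to 7.63 reads, and Npy5r, a receptor for neuropeptide Y, from 76.8 to 22.4. Neuropeptide Y itself, whose promoter is printed above, fell from 78.4 to 21.7 reads.

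Axon guidance genes fell at 4 of 73 (5.48%). Dscam, a neuronal adhesion molecule, fell from 120.6 to 45.3 reads, and Epha7, an ephrin receptor, from 39.98 to 20.6. Ntn1, the guidance cue netrin, fell from 29.0 to 8.78 reads and Sema6d, a semaphorin, from 23.0 to 6.50. Cadherins and protocadherins fell at 3 of 108, a share of 2.78% that is close to the 2.71% of all genes. They were Cdh20, Pcdh8 and Cdh11, with WT levels of 65.4, 139 and 119 reads and mutant levels of 23.5, 57.8 and 61.2.

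Collagen and ADAM-type matrix genes fell at 18 of 146 (12.3%), with a median difference of -1.26. Adamts16, a secreted metalloprotease gene, fell from 71.9 to 16.8 reads, and Col24a1, Col9a2 and Col25a1, which encode minor collagens, fell from 81.7 to 23.3, from 88.5 to 29.7 and from 43.96 to 15.1. Col4a3 and Col4a4, basement membrane collagens that neighbour each other on chromosome 1, shared a single window that fell from 43.7 to 21.9 reads.

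**Figure D4:**
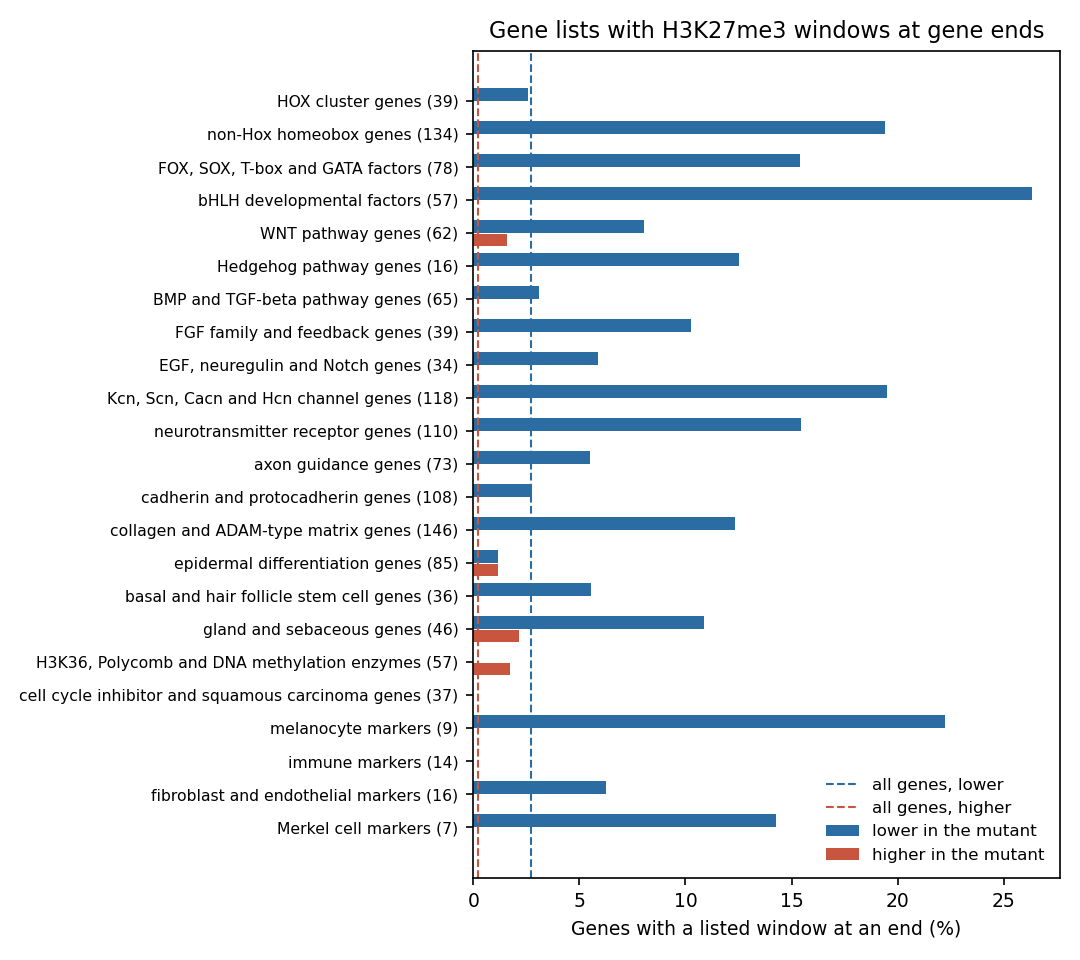
Percentage of the genes of each list with a falling or a rising H3K27me3 window at an end, beside all autosomal protein-coding genes. Falling shares reach 26.3% in the bHLH factors against 2.71% of all genes. Most lists lie above that line, several of them small, while Hox cluster, cadherin and BMP and TGF-beta genes lie near it. Epidermal differentiation genes lie below it at 1.18%. The lists of methylation and Polycomb enzymes, of cell cycle and carcinoma genes and of immune markers have no falling window.

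Signalling genes are read against the same 2.71% of all genes, and none of these differences was tested. Of 62 WNT pathway genes 5 fell (8.06%) and 1 rose. Dkk1, a secreted WNT antagonist, fell from 144 to 67.2 reads, and Rspo4 and Rspo1, secreted enhancers of WNT signalling, from 48.9 to 20.4 and from 70.8 to 33.8. The receptor gene Fzd2 rose from 9.55 to 20.0 reads, with an FDR of 0.0489 by the authors' deposited table. Of 16 Hedgehog genes the ligands Ihh and Dhh fell (12.5%), from 45.3 to 16.3 and from 60.4 to 27.2 reads. Of 65 BMP and TGF-beta genes the antagonist Grem1 and the ligand Gdf7 fell (3.08%), from 104 to 39.7 and from 142.5 to 79.4 reads.

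FGF family and feedback genes fell at 4 of 39 (10.3%), all of them ligands. Fgf2 fell from 98.7 to 40.5 reads, Fgf5 from 116 to 56.6, Fgf20 from 64.5 to 37.4 and Fgf17 from 80.5 to 53.8. Fgf17 had a difference of -0.58, the smallest of any falling member. EGF, neuregulin and Notch genes fell at 2 of 34 (5.88%). Dll4, a Notch ligand of vessels, fell from 97.0 to 31.6 reads and Nrg2, a neuregulin, from 10.2 to 2.28.

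Of 85 epidermal differentiation genes, 1 fell (1.18%) and 1 rose. The start of Lce3d, a gene of the cornified envelope, fell from 25.7 to 5.74 reads, and the far end of Lor, which encodes loricrin, rose from 7.61 to 20.1. Lce3d has close paralogs, so its reads may be shared with them. Of 36 basal and hair follicle genes 2 fell (5.56%), Krt19 from 42.2 to 20.4 reads and Tbx1 from 95.6 to 43.99. Of 46 gland and sebaceous genes 5 fell (10.9%) and 1 rose, with Krt19 counted in both lists. Tbx1 and the gland genes Foxi3 and Sox10 are also counted among the FOX, SOX, T-box and GATA factors, and Sox10 among the melanocyte markers. Pparg, a regulator of lipid synthesis in sebaceous glands, fell from 110.02 to 60.5 reads, and the far end of the milk protein gene Lalba from 28.3 to 10.4. Prlr rose from 5.84 to 18.2 reads, with an FDR of 0.0125 by the authors' deposited table. None of 37 cell cycle inhibitor and squamous carcinoma genes had a member window, and of 57 H3K36, Polycomb and DNA methylation enzymes only Tet1 had one. Tet1, which oxidises methylated cytosine, rose from 26.99 to 52.1 reads, a difference of 0.95, from the highest WT level of any rising window.

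The 10 largest falls with both genotypes above the floor of 1 read spanned differences of -3.32 to -2.16. Ifna7, a type I interferon gene, fell from 11.5 to 1.15 reads, and Rims4, of the presynaptic RIM family, from 10.2 to 1.51. Interferon alpha genes are near-identical copies, so the Ifna7 value is uncertain. Phactr1, a regulator of actin and protein phosphatase 1, fell from 81.6 to 14.7 reads, a difference of -2.48 from a high WT level. Rab3c, a small GTPase of synaptic vesicles, fell from 61.9 to 13.2 reads, Kng1, the kininogen gene, from 36.6 to 8.01, and Hp, the haptoglobin gene, from 20.6 to 4.60. Gm7579 had 8.03 reads in WT and 1.79 in the mutant. Kit, Kcnh8 and Nmbr complete this group. At the low levels of Ifna7, Rims4 and Gm7579 the authors' deposited log2 folds were nearer to 0, at -1.46, -1.25 and -1.13. Their FDRs by the authors' deposited table were 0.00662, 0.0223 and 0.0419. Adamts16, outside these 10, had a deposited fold of -1.91, so the order depends on the measure.

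The 10 largest rises with both genotypes above that floor spanned 2.70 to 2.14 and all began from fewer than 8 reads. Myoz1, a gene of the muscle Z-disc, rose from 2.91 to 18.9 reads, Rd3, a retinal gene, from 1.51 to 9.41, and Mansc1 from 2.38 to 14.4. Runx2, the bone-forming factor, rose from 4.56 to 22.3 reads, with an FDR of 0.000179 by the authors' deposited table. Mfap4, a gene of elastic fibres, rose from 6.13 to 28.6 reads, the highest mutant level among the 10. Rab43, a Golgi GTPase, rose from 2.30 to 10.6 reads, Ttc39d from 4.49 to 20.2, Gm40755 from 3.602 to 18.1 and Prxl2a, a peroxiredoxin-like gene, from 2.30 to 10.2. Of the rising windows 5 had a WT level at the floor of 1 read, and of the falling ones only that of Hmga2, a chromatin architectural gene, had its mutant level there, with 10.7 reads in WT. Their differences depend on that floor.

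**Figure D5:**
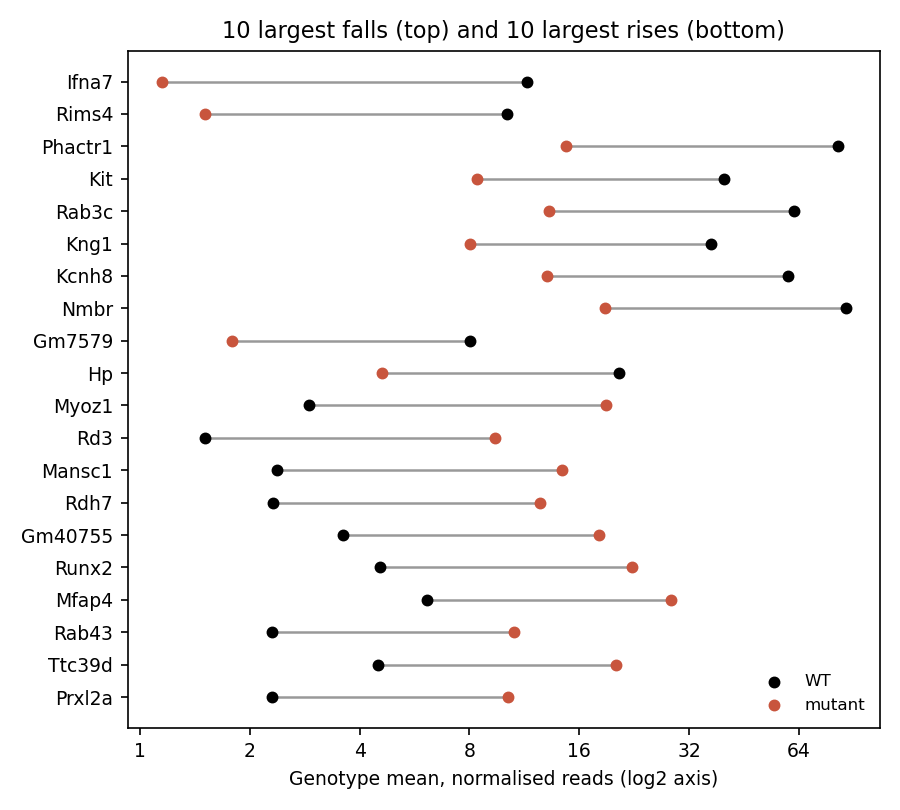
Mean normalised H3K27me3 reads in WT and mutant, on a log scale, for the 10 gene-end windows with the largest fall and the 10 with the largest rise, both genotypes above the floor of 1 read. Falls start from 8.03 to 85.8 reads and rises from 1.51 to 6.13.

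No gene had more than 2 member windows. Npas3, a neuronal bHLH-PAS factor, fell at its start from 85.2 to 38.3 reads and at its far end from 34.1 to 9.93. Nwd2 fell from 31.1 to 8.17 and from 39.2 to 11.3 reads. Zfp423, a zinc finger factor of adipocyte and cerebellar development, fell from 142.3 to 59.6 reads at its far end and from 79.4 to 48.4 at its start.

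Listed windows deeper in the same genes were set beside those at the ends, and 67.4% of all deep windows fell whatever the end did. Of 83 genes with a falling end and at least 1 listed window deeper in the body, 71 had deep windows that all fell, 11 had deep windows that all rose and 1 had both. Of 6 genes with a rising end and a deep window, 3 had deep windows that all rose, 2 had deep windows that all fell and 1 had both. Runx2 was among the 2, with a rising window near its start and falling windows inside. Adgrv1, a large adhesion receptor gene of hair cells, had the reverse, with a start that fell from 124 to 55.8 reads and rising windows inside. The end and deep windows of a gene come from the same libraries, so this is a description and not an independent check.

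H3K36me2, the mark that H3K36M acts on, was compared at the same places. In the authors' deposited SICER2 table of 13409 islands, made from reads pooled by genotype, 58.1% of islands were lower and 17.3% higher in the mutant at an FDR under 0.05. None of the 540 falling gene-end windows lay in an island, which allows a share of up to 0.556%. Of the 48 rising windows 5 lay in an island (10.4%), and all 5 islands were lower in the mutant. They are at Adgb, Ccdc15, Acta2, Oscp1 and Prxl2a, with folds of mutant over WT of 0.632, 0.670, 0.675, 0.766 and 0.840 in the authors' deposited table. Elsewhere the same split was seen: 5 of 1050 falling and 77 of 508 rising windows deep in genes lay in islands, as did 1 of 1128 falling and 206 of 983 rising intergenic windows. Of the 5 gene-end windows in islands, those at Ccdc15 and Oscp1 had H3K27me3 at the floor of 1 read in WT. They had 4.45 and 6.23 reads in the mutant, and the size of these rises depends on that floor. Those at Adgb, Acta2 and Prxl2a rose from 4.83 to 19.6, from 7.51 to 17.1 and from 2.30 to 10.2 reads. The SICER2 test compares 2 pools of reads, not animals.

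H3K36me2 was also measured in windows of the same kind. None of 18072 windows passed an FDR under 0.05 with DiffBind in the authors' deposited table, and 4.04% had an unadjusted p under 0.05, 2.81% with a lower and 1.23% with a higher level. Such windows coincided with 23 gene-end windows, or 3.91% of them, a share near that background. Of these 23, H3K27me3 fell and H3K36me2 was higher at 16, both were lower at 6, and at Tet1 H3K27me3 rose while H3K36me2 was lower. H3K36me2 levels at the 23 windows were low, 1 to 12.5 reads in WT and 2.01 to 11.2 in the mutant. Lrrc34 and Mei1 were at the floor of 1 read in WT. The smallest p for H3K36me2 among the 23 was 0.00556 in the authors' deposited table, where none passed adjustment. No opposite movement of the marks is read from these counts.

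The windows nearest to the limit of 1000 bp are given as a description. Just inside it Mc1r, at 1000 bp, fell from 46.9 to 17.7 reads and Trh, at 998 bp, from 86.1 to 28.3. Just outside it Ppm1e, at 1004 bp, had 105.4 and 40.4 reads, and Sox9, at 1007 bp, had 65.5 and 34.03. Cd80, at 1015 bp, had 4.25 reads in WT and 12.1 in the mutant.

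Markers of other cells that an epidermal suspension can hold were checked over 46 genes. Falling windows lay at 4 of them (8.70%), against 2.71% of all genes, and rising windows at none. They were 2 of 9 melanocyte, 1 of 7 Merkel cell and 1 of 16 fibroblast and endothelial markers. The difference from all genes was not tested. Kit, the stem cell factor receptor of melanocytes, fell from 39.8 to 8.37 reads, and Sox10, a factor of the melanocyte lineage, from 60.3 to 33.7. Kdr, an endothelial receptor, fell from 60.7 to 22.7 reads, and Rab3c is counted here for Merkel cells. None of 14 immune markers had a member window. H3K27me3 levels do not measure the number of such cells, and the part of other cells in the changes was not tested.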

How the data were processed

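H3K27me3, H3K36me2 and IgG were profiled in 18 libraries that form 6 groups of 3, from 6 animals, per the labels. The submitters' processing notes name Bowtie2, SICER, DiffBind and DESeq2 without versions, and the build GRCm38 (mm10). The peak caller and any blacklist, spike-in or removal of duplicates go unnamed in the sources used here. The authors deposited tables of comparisons without a column per library, so the depth of single libraries is unknown, no spread between animals is printed, and the IgG libraries were not analysed here. The authors' window p-values rest on 3 animals per genotype.

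The authors' DiffBind tables give log2 mean normalised reads per genotype, a log2 fold, a p-value and an FDR for windows of 401 bp, per the file headers. The deposited fold is mostly nearer to 0 than the difference of the genotype means. Of 18072 windows tested, 4285 are listed for H3K27me3, all with an FDR under 0.05, and 28 of these lie on chromosome X. The number of windows tested was derived here, for each mark, as the ratio of FDR to p-value in the first listed row. The authors' SICER2 table gives, per the file headers, a count per genotype, RPM, a fold ratio, and a p-value and FDR for each direction, from pools of 59539924 mutant and 47361190 WT reads. The sources used here do not give the way libraries were merged.

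The mutant minus WT difference of the deposited log2 means was computed for each window. Gene positions were those of RefSeq on GRCm38.p6 and strand from its promoter table, which covers 79.6% of the genes. Deep windows overlap a gene more than 1000 bp from any gene end, and the others are intergenic. Shares by location and by kind of end carry exact Clopper-Pearson 95% intervals, and a count of 0 is given an upper limit of 3 counts. Both cover counting error only. PCR copies are not independent molecules.

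Named windows were those with neither genotype at the floor of 1 read: the 10 largest falls and rises, the genes with most windows, the 5 highest WT levels, and up to 4 genes per list by size of the difference. Others are named for a sequence, an island, a position or a shared window, and Pparg, Adgrv1, Hmga2, Tac2 and Rdh16f2 were named after their values were seen. Some windows that this rule names are not reported here. The members and the 23 lists were chosen with earlier results of these data known. Alternatives were the distance, the FDR, a shift of the scaling, the deposited fold and the kind of end. Python 3.11.15, pandas 2.3.3, NumPy 2.4.6, SciPy 1.17.1 and Matplotlib 3.10.9 were used.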

Additional observations from a re-analysis of the deposited data

How the results depend on the processing

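No paired analysis was possible because the tables hold genotype means and no column per library, and no animal has both genotypes. For the same reason no replicate could be left out. Over 85 alternatives of 8 results, 25 moved the result. Many others could not move it: members lie at least 18738 bp apart, so merging those within 2000 bp removes none, and a shift of 0.5 changes neither the WT levels nor, with every difference above it in size, the counts. No stability is read from these. All 20 of the largest falls and rises kept their sign by the deposited fold. That fold comes from the same comparison of the same libraries, so its sign is no separate check. With a distance of 500 bp, 334 windows fell and 26 rose. With 2000 bp, 843 fell and 99 rose, and falling windows had a median of 76.8 WT reads. With 5000 bp, 1205 fell and 236 rose, a share of 83.6% lower. Windows that contain a gene end numbered 91 falling and 12 rising, 88.3% lower, with a median of 60.3 WT reads in the falling ones. At an FDR under 0.01, 17 rose, 96.5% were lower, the median rise was 2.03 and falling windows had 77.2 WT reads. A shift of the scaling by 0.5 on the log2 scale moved the median fall and rise to -0.71 and 2.22 upward, and to -1.71 and 1.22 downward. The deposited fold gave -1.09 and 1.16. Starts alone gave 22 rising windows, and far ends, here with windows that are also near a start, 72 falling and 15 rising. The cause of these moves was not tested, beyond the smaller or larger number of windows that each rule keeps. Windows that did not pass the FDR are not among those used here, so the share of all gene ends that lost the mark is not known.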

Other observations

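Ends of other genes are given here beside the 63.8% of all listed autosomal windows that fell. All 12 listed windows within 1000 bp of an end of a miRNA gene were lower in the mutant. One of them, at Btg4, an antiproliferative gene, also lies by Mir34b and Mir34c, neighbours on chromosome 9, and it fell from 66.2 to 31.1 reads. Their 3p arms share the seed in capitals, bases 2 to 8 of the mature RefSeq sequence.
mmu-miR-34b-3p: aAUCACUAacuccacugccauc
mmu-miR-34c-3p: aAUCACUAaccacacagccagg

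At ends of lncRNA genes 204 of 264 windows were lower and 60 higher, but 57 of these also lie at a protein-coding gene end, with 54 lower and 3 higher. The 150 intergenic ones had 99 lower and 51 higher. Of all 2111 listed intergenic windows, these included, 1128 were lower and 983 higher (53.4% lower), and the difference was not tested. On chromosome X, which was left out above, 8 of 9 gene-end windows were lower. Cdx4, a homeobox gene, fell from 66.5 to 21.6 reads, and Sox3 from 66.4 to 42.1. The exception was Cldn2, a tight junction gene, which rose from 4.04 to 19.9 reads. The WT levels of these X-linked windows showed the same order as on the autosomes, with the rising window the lowest of the 9.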
